A study of Homo sapiens with 8 samples.

Results

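Genes that NF-κB is known to switch on were followed in HepG2, a human hepatic tumor cell line, harvested 48 h after it had received either a plasmid for flag-tagged GRHL2, an epithelial transcription factor (pGRHL2), or the vector pcDNA3. A list of 10 gene symbols was looked up, namely TNFAIP3, NFKBIA, NFKB2, RELB, BIRC3, ICAM1, CXCL8, CXCL1, CXCL2 and CCL20, and 9 of them were found among the 17561 genes of the deposited table. CXCL1 was not among its rows and is not analysed here. Each plasmid was represented by 4 libraries of bulk mRNA numbered 1 to 4, and all cells were grown in medium that contained serum, insulin and the glucocorticoid dexamethasone. The GRHL2 construct carried an EEF1A1 promoter and also produced green fluorescent protein, so that GRHL2, the promoter and the fluorescent protein cannot be told apart in this comparison. Transfection was transient and the RNA came from whole cultures, in which fewer cells expressing a gene and less RNA per cell cannot be told apart.

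NF-κB is a family of dimeric transcription factors held in the cytoplasm by IκB proteins. In the canonical pathway, the IκB kinase complex marks IκB for destruction and dimers of RELA and p50 enter the nucleus, whereas in the non-canonical pathway MAP3K14, also called NIK, triggers the processing of p100, the product of NFKB2, which then acts with RELB. Many targets restrain the pathway in turn, such as NFKBIA and TNFAIP3, and others attract or bind leukocytes, such as chemokines and ICAM1. In liver cells, the pathway is known for its response to cytokines and for protection against cell death.

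The values were deposited on a log2 scale after adjustment for transcript length, and their sequencing depth is unknown, so that no counting error can be given. The library medians lay between 6.71 and 6.73. The libraries with the same number form 4 pairs whose mean was the same for each gene, so that a value above this mean with one plasmid had its mirror image below it with the other, and the comparisons rest on the 4 pair differences. GRHL2 itself was higher in pGRHL2 by 8.97, 9.51, 10.26 and 9.18 in pairs 1 to 4 (log2). By limma with an adjusted p under 0.05 over all genes, 1.69% of genes were called higher and 0.501% were called lower in pGRHL2. The hepatocyte markers went with the HepG2 label, since all 10 listed, ALB and AFP included, were in the table at levels of 9.83 to 17.11. Of 10 macrophage and leukocyte markers only 4 were in the table, at levels of -0.92 to 13.27 with LYZ at the top, and PTPRC and CSF1R were not among its rows. Endothelial and fibroblast markers were in the table for 3 of 6 and 3 of 7 genes, at levels of 0.08 to 5.43 and 5.08 to 8.14, respectively. A missing row does not show a missing cell type, since 8 of 34 further NF-κB targets looked up were also without one. In these 4 marker lists 0 genes were called by limma, while 1 hepatocyte and 1 fibroblast marker were higher at an unadjusted p under 0.05, as were 9.17% of all genes.

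The promoters of the listed genes were examined for the κB consensus, the sequence that NF-κB dimers bind. RefSeq promoter windows (GRCh38.p14), which run from 250 bases before a transcription start to 50 after it, were available for 9 of the 10 genes, RELB being without one. The κB consensus was found on either strand in 7 of these 9 genes and in 6 of the 8 that were also measured, compared with 11.3% of all 35116 promoter windows and 17.03% of the 12829 genes of the table with a window. Stretches from 5 of the windows are shown because TNFAIP3 was called lower upon GRHL2 expression while the other 4 genes, whose matches also lay upstream of the start, were not. NFKB2, with matches upstream of 2 of its 3 starts, was not called either. Its stretches, with 79 of 79 and 21 of 205 bases in annotated exons, are not shown. Each stretch is written 5′ to 3′ along the gene, and capitals mark the κB matches on either strand with overlapping matches merged.
TNFAIP3: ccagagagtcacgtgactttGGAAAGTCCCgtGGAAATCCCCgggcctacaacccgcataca
NFKBIA: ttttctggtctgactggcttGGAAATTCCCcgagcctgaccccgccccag
BIRC3: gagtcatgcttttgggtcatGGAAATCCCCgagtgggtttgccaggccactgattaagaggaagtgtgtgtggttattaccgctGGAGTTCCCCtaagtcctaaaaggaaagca
CXCL2: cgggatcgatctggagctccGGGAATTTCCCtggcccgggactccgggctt
CCL20: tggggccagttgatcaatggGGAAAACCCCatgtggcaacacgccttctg
They lie at chr6:137867172-137867233 on the plus strand, chr14:35404801-35404850 on the minus strand, chr11:102317265-102317378 on the plus strand, chr4:74099243-74099293 on the minus strand and chr2:227813743-227813792 on the plus strand, respectively. In GENCODE release 44, the last 20 of the 62 bases for TNFAIP3 fall in an annotated exon and the CCL20 stretch falls inside the annotated gene but in no exon, while the other 3 stretches lie before the gene. TNFAIP3 and BIRC3 each had 2 matches on the antisense strand. NFKB2 had matches at 2 of its 3 annotated starts. The consensus searched was GGGRNNYYCC, where R is A or G, Y is C or T and N is any base. ICAM1 and CXCL8 had no match to these letters in the window, and sites that deviate from them were not searched. The palindromic GRHL motif AACCGGTT was found in 0 of the 9 genes, in 0.234% of the 12829 genes and in 0.134% of all windows. With the looser form AACNGGTT these values were 0, 1.98% and 1.73%. At such shares, 0 of 9 genes is likely for any list, so that GRHL2 binding near these genes cannot be judged from it. The paper's GRHL2 ChIP-seq in HepG2 cells was not examined here.

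**Figure D1:**
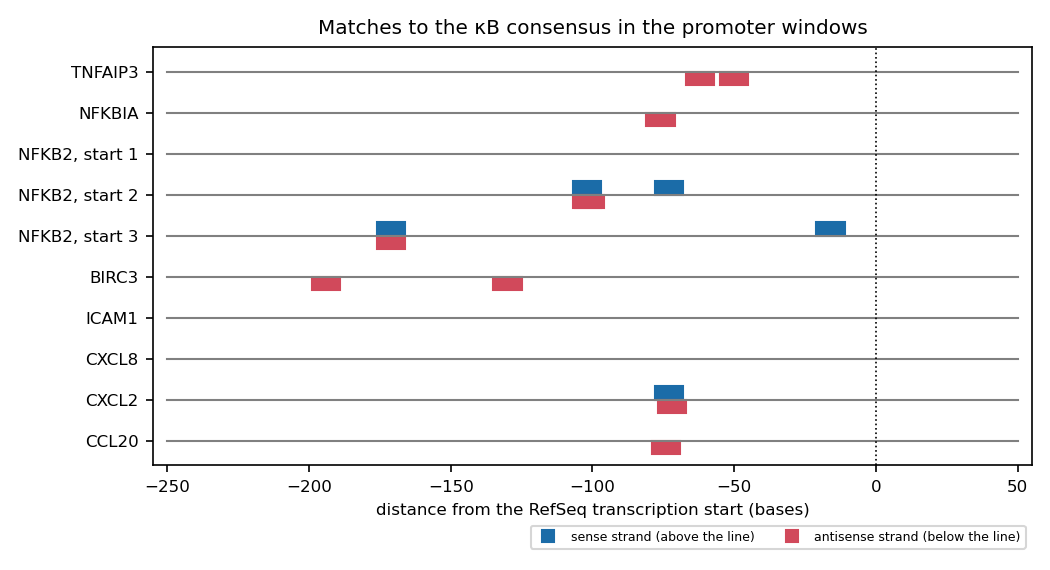
Positions of matches to the κB consensus in the promoter windows of the 8 measured genes that had one, with 3 starts for NFKB2. The x axis is the distance in bases from the RefSeq start and each box is a match or overlapping matches, drawn above the line for the sense strand and below it for the antisense strand; the matches of NFKBIA, CXCL2 and CCL20 begin between positions -81 and -77, those of TNFAIP3 closer to it and those of BIRC3 farther away.

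On the deposited log2 scale per transcript length, CCL20 had the highest level of the 9 genes, with a mean over 8 libraries of 11.75, a percentile of 97.5 among all genes. It was followed by NFKBIA (10.66), TNFAIP3 (10.28), NFKB2 (10.21), ICAM1 (10.07) and CXCL8 (9.88). NFKBIA and TNFAIP3 overlapped in the pcDNA3 libraries but not in the pGRHL2 libraries, TNFAIP3 and NFKB2 overlapped in the pGRHL2 libraries only, NFKB2 and ICAM1 in the pcDNA3 libraries only, and ICAM1 and CXCL8 overlapped in both. RELB (8.92), BIRC3 (6.90) and CXCL2 (3.41) were lower, each apart from its neighbours in that order in every library. CXCL2 had a percentile of 27.9, and its paralog CXCL3 had a level of 0.51. Thus 7 of the 9 transcripts had a percentile of at least 75.0 in these cells.

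**Figure D2:**
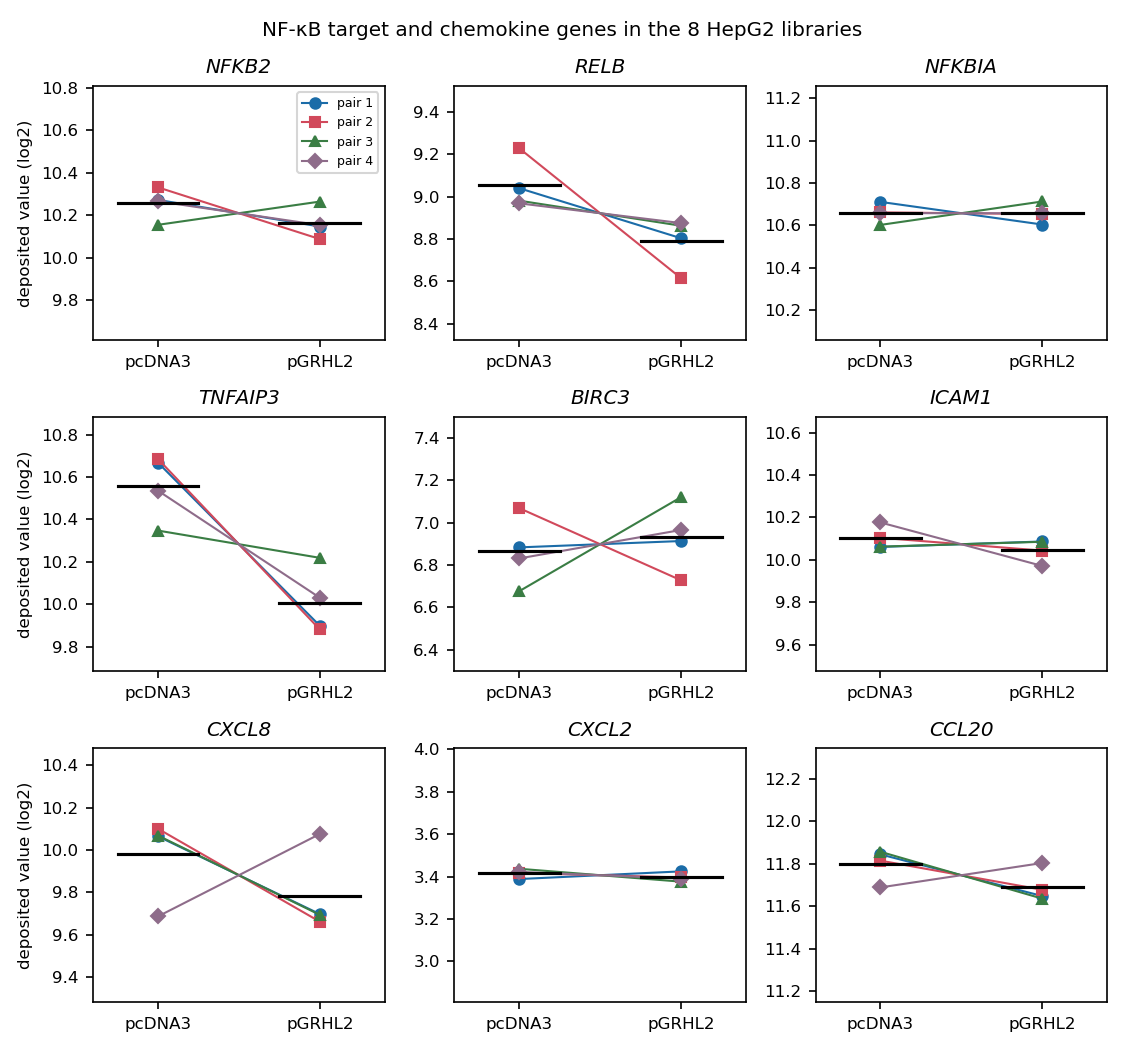
Deposited log2 values of the 9 genes in pcDNA3 and pGRHL2 libraries, 1 panel per gene with a span of 1.2 on every y axis. Symbols are libraries, lines join the same-numbered libraries and black bars are group means; the 4 TNFAIP3 lines all slope down, whereas the pair 4 lines of CXCL8 and CCL20 run against the other 3.

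The comparison of pGRHL2 with pcDNA3 asked whether NF-κB targets changed upon GRHL2 ectopic expression. One gene, TNFAIP3, fell, and the other 8 were not called in either direction, which does not show that they were unchanged. Thus 1 of 9 genes was called lower and 0 were called higher, where 0.501% and 1.69% of all genes were called. With a mean value of at least 5, which leaves out CXCL2, 81 of 10858 genes were called lower and 63 higher. In that fit 1 of the listed genes was called lower and 0 higher. The groups did not overlap for TNFAIP3 and RELB, both lower in pGRHL2, and for 0 genes higher in pGRHL2, where such a separation was seen in 10.5% of all genes for lower and in 13.4% for higher values. The log2 FC was negative for 8 of the 9 genes with a median of -0.09, while it was negative for 8519 of 17561 genes with a median of 0.0017. At an unadjusted limma p under 0.05, 2 of the 9 genes were lower and 0 were higher, compared with 6.78% and 9.17% of all genes.

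TNFAIP3 encodes A20, a ubiquitin-editing enzyme that shuts off NF-κB signaling downstream of the TNF receptor. In hg38 it spans 137867214 to 137883314 of chromosome 6 (plus strand). Its log2 values in pcDNA3 libraries 1 to 4 were 10.67, 10.69, 10.35 and 10.54, while those in pGRHL2 libraries 1 to 4 were 9.90, 9.88, 10.22 and 10.03. The highest pGRHL2 library was below the lowest pcDNA3 library. The log2 FC was -0.55 ± 0.31 (SD, n = 4 pairs; adjusted p of 0.0354 by limma, 95% interval of -0.79 to -0.31), which corresponds to 0.682 times the control level, and gave TNFAIP3 a rank of 11 from the lowest among the 17561 genes. Pairs 1, 2 and 4 differed by -0.77, -0.80 and -0.50, but pair 3 by only -0.13. Pair 3 was also the one with the largest GRHL2 difference, whose part in this was not tested. The exact two-sided sign-flip permutation test of the 4 pair differences gave p = 0.125, the smallest value 4 pairs can give. The adjusted p by limma was 0.194 without replicate 1, 0.1499 without replicate 2 and 0.0962 without replicate 4, and 0.0209 without replicate 3, so that the call was lost without pair 1, 2 or 4. It was also lost with eBayes without trend (adjusted p of 0.155 by limma) and with quantile normalization (adjusted p of 0.0565 by limma).

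NFKBIA, the IκBα inhibitor that NF-κB induces as a rapid feedback, lies on chromosome 14 from 35401079 to 35404749 on the minus strand. Its log2 values were 10.71, 10.66, 10.60 and 10.66 in pcDNA3 libraries and 10.60, 10.65, 10.71 and 10.66 in pGRHL2 libraries. The groups covered the same range. Its log2 FC was -0.0012 ± 0.0888 (SD, n = 4 pairs; adjusted p of 0.996 by limma), with a 95% interval of -0.13 to 0.13. TNFAIP3, the other feedback inhibitor of the list, had a limma interval of -0.79 to -0.31 from the same 4 pairs. The difference between the genes was not tested.

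NFKB2 and RELB encode the subunits of the non-canonical dimer. NFKB2, on chromosome 10 from 102394110 to 102402524, had log2 values of 10.27, 10.33, 10.15 and 10.27 in pcDNA3 libraries and of 10.15, 10.09, 10.26 and 10.15 in pGRHL2 libraries. It was lower in pairs 1, 2 and 4 and higher in pair 3, and its log2 FC of -0.09 ± 0.15 (adjusted p of 0.569 by limma) was smaller than the spread between pairs. RELB, on chromosome 19 from 45001461 to 45038192, had log2 values of 9.04, 9.23, 8.98 and 8.97 in pcDNA3 libraries and of 8.80, 8.62, 8.86 and 8.87 in pGRHL2 libraries. The groups did not overlap, but pair 2 stood out with a difference of -0.61 against a median of -0.12 in the other pairs. Its log2 FC was -0.27 ± 0.24 (SD, n = 4 pairs; adjusted p of 0.183 by limma, 95% interval of -0.47 to -0.06) and was not called over all genes. The fit by limma without the replicate block called it (adjusted p of 0.0354), but takes 6 residual degrees of freedom where these values leave 3. Without replicate 2 the log2 FC of RELB was -0.15.

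BIRC3 encodes cIAP2, a ubiquitin ligase that limits cell death and NIK activity, and lies on chromosome 11 from 102317484 to 102339403. Its log2 values were 6.88, 7.07, 6.68 and 6.83 in pcDNA3 libraries and 6.91, 6.73, 7.12 and 6.97 in pGRHL2 libraries. The pairs disagreed in direction, from -0.34 in pair 2 to 0.44 in pair 3, and the log2 FC was 0.07 ± 0.32 (adjusted p of 0.833 by limma). Without replicate 3 it was -0.06. Its paralog BIRC2, which encodes cIAP1 and is not an NF-κB target of the list, had a level of 10.11 and a log2 FC of -0.11 ± 0.18 (adjusted p of 0.524 by limma).

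ICAM1 encodes the adhesion molecule that leukocyte integrins bind and lies on chromosome 19 from 10271093 to 10286615. Its log2 values were 10.06, 10.10, 10.06 and 10.18 in pcDNA3 libraries and 10.09, 10.04, 10.08 and 9.97 in pGRHL2 libraries. The 2 groups overlapped, with a log2 FC of -0.05 ± 0.11 (adjusted p of 0.740 by limma, 95% interval of -0.19 to 0.08). Of its annotated exon bases, 25.4% were shared with other genes. The study counted in the union mode of HTSeq without regard to strand, which leaves out reads that fall on several genes. The level of ICAM1 may thus be understated.

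Among chemokines, CXCL8, also called interleukin-8, attracts neutrophils. It lies on chromosome 4 from 73740519 to 73743716. Its log2 values were 10.06, 10.10, 10.07 and 9.69 in pcDNA3 libraries and 9.70, 9.66, 9.69 and 10.08 in pGRHL2 libraries. Pairs 1 to 3 were lower in pGRHL2 by similar amounts, with differences of -0.37, -0.44 and -0.37, whereas pair 4 was higher by 0.39. The log2 FC over all pairs was -0.20 ± 0.39 (SD, n = 4 pairs; adjusted p of 0.511 by limma, 95% interval of -0.49 to 0.09). Without replicate 4 it was -0.39 with an adjusted p of 0.0340 by limma, so that 1 pair decided whether CXCL8 was called. The same fit lost TNFAIP3.

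CCL20, which attracts cells bearing CCR6, lies on chromosome 2 from 227805739 to 227817564. Its log2 values were 11.84, 11.81, 11.86 and 11.69 in pcDNA3 libraries and 11.65, 11.68, 11.64 and 11.80 in pGRHL2 libraries. As for CXCL8, it was lower in pairs 1 to 3 and higher in pair 4, by 0.12. Its log2 FC was -0.11 ± 0.15 (adjusted p of 0.455 by limma, 95% interval of -0.25 to 0.03), and -0.18 without replicate 4 (adjusted p of 0.122 by limma).

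CXCL2, another neutrophil attractant, lies on chromosome 4 from 74097040 to 74099196, in the same cluster as CXCL8. Its log2 values were 3.39, 3.42, 3.44 and 3.42 in pcDNA3 libraries and 3.42, 3.40, 3.38 and 3.39 in pGRHL2 libraries. The groups overlapped. The transformation used by the authors shrinks differences of weakly expressed genes, and its log2 FC of -0.02 ± 0.04 (adjusted p of 0.804 by limma) may understate a difference.

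**Figure D3:**
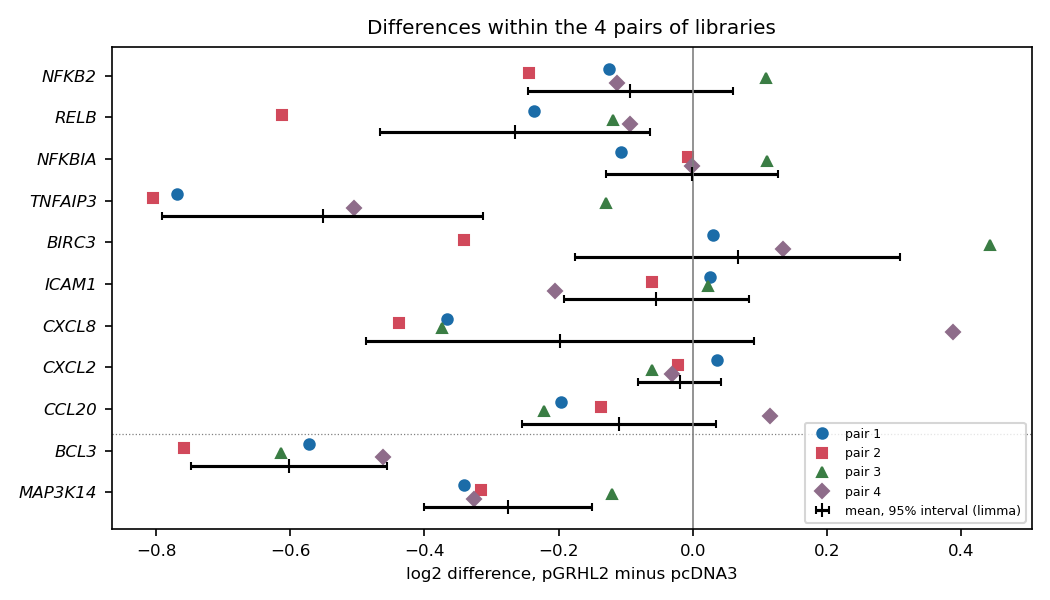
Differences between pGRHL2 and pcDNA3 within each pair of libraries for the 9 genes and, under the dotted line, for BCL3 and MAP3K14. The x axis is the log2 difference, symbols are pairs and black bars give the mean with its 95% interval from limma; all 4 symbols are below 0 for TNFAIP3, RELB, BCL3 and MAP3K14.

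The 4 pairs differed in how many of the 9 genes were lower in pGRHL2. The number was 6 in pair 1, 9 in pair 2, 5 in pair 3 and 6 in pair 4. Over all 17561 genes, it was 8463, 8380, 8503 and 8515 in pairs 1 to 4. The median difference of the 9 genes was -0.13, -0.24, -0.06 and -0.03 in pairs 1 to 4, while that of all genes was between 0.00078 and 0.0059. Pair 2 had the lowest difference of 5 of the 9 genes, namely TNFAIP3, NFKB2, RELB, BIRC3 and CXCL8. Pair 3 had the highest difference of TNFAIP3, NFKBIA, NFKB2 and BIRC3. Of all 17561 genes, 4056 were lowest in pair 2 and 4650 were highest in pair 3. Pair 2 was also the one in which all 10 hepatocyte markers were higher in pGRHL2, with a median difference of 0.32 against -0.0055, -0.05 and -0.12 in pairs 1, 3 and 4. The log2 of the summed hepatocyte marker level ranged from 18.11 to 18.32 in pcDNA3 libraries and from 18.21 to 18.42 in pGRHL2 libraries. The part of this shift in the lower NF-κB targets of pair 2 was not tested. Without replicate 2, the median log2 FC of the 9 genes was -0.05.

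**Figure D4:**
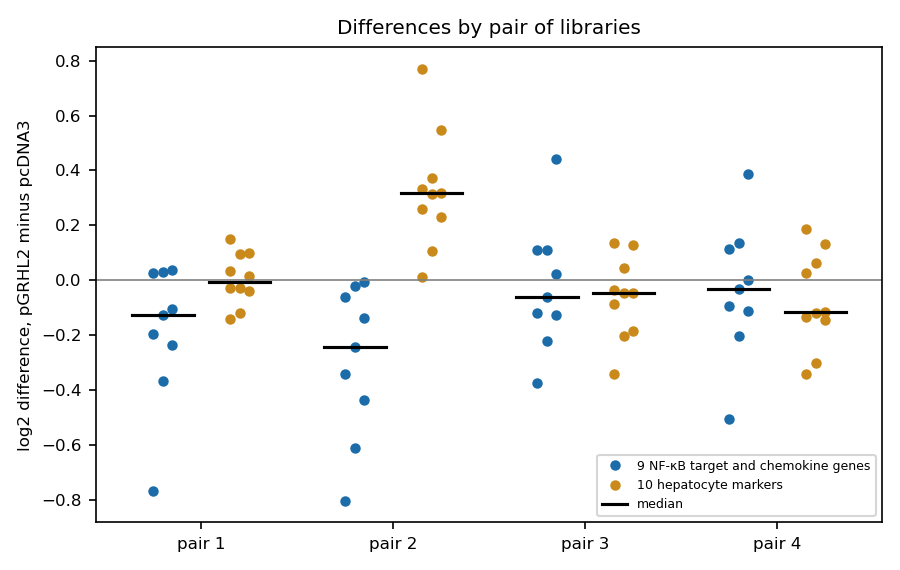
Log2 difference of pGRHL2 minus pcDNA3 on the y axis by pair of libraries, for the 9 NF-κB target and chemokine genes and the 10 hepatocyte markers. Each point is a gene and each black bar a median; in pair 2 all 9 target genes lie below 0 and all 10 markers above it.

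Other genes of the pathway were listed by role. Among 8 further NF-κB subunits and IκB proteins, 1 fell and 0 rose, where 0.501% and 1.69% of all genes were called lower and higher. The lower gene was BCL3, an atypical IκB protein that acts in the nucleus with p50 and p52 homodimers and is itself an NF-κB target. BCL3, on chromosome 19 from 44747705 to 44760044, had log2 values of 9.38, 9.47, 9.40 and 9.32 in pcDNA3 libraries and of 8.81, 8.71, 8.79 and 8.86 in pGRHL2 libraries. The groups were well apart, and its log2 FC of -0.60 ± 0.12 (SD, n = 4 pairs; adjusted p of 0.0037 by limma) was called in each of the 4 fits without a replicate (adjusted p of 0.0168 to 0.0332 by limma) but not with eBayes without trend (adjusted p of 0.0668). The κB consensus was found in the BCL3 window, 3 bases after the start, and had no match in the window of MAP3K14, the other pathway gene called. The 8 genes had a median log2 FC of -0.07, and 7 were negative. At an unadjusted limma p under 0.05, 2 of them were lower and 0 were higher, compared with 6.78% and 9.17% of all genes.

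Of 30 kinases and adaptors, 1 fell and 0 rose, where 0.501% and 1.69% of all genes were called lower and higher. At an unadjusted limma p under 0.05, 5 were lower and 2 were higher, compared with 6.78% and 9.17% of all genes. MAP3K14, the kinase that starts non-canonical signaling, had log2 values of 6.84, 6.82, 6.73 and 6.83 in pcDNA3 libraries and of 6.50, 6.51, 6.61 and 6.50 in pGRHL2 libraries. The pGRHL2 libraries were all below the pcDNA3 libraries, with a log2 FC of -0.28 ± 0.10 (adjusted p of 0.0426 by limma). Its call was lost in each of the 4 fits without a replicate (adjusted p of 0.0555 to 0.217 by limma), with a log2 FC of -0.33 to -0.25, and 15.1% of its exon bases were shared with other genes. The median log2 FC of the 30 genes was -0.01, with 16 negative and 14 positive values.

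In the other lists 0 genes were called by limma. At an unadjusted p under 0.05, 2 receptors, 1 ligand and 1 further target were higher, and 1 receptor and 3 further targets were lower, where 9.17% of all genes were higher and 6.78% lower at that threshold. Of 16 receptors that activate NF-κB, 14 were in the table with a median log2 FC of 0.01 and a range from -0.26 for TNFRSF12A, the receptor of TWEAK, to 0.24 for IL1R1, the interleukin-1 receptor. Without replicate 4, TNFRSF12A was at -0.36 and was called (adjusted p of 0.0407 by limma). IL1R1 was higher in 4 of 4 pairs without passing the threshold (adjusted p of 0.0721 by limma). CD40 and IL18R1 had log2 FC of 0.14 and -0.02. Of 12 activating ligands only 5 were in the table, and TNF and IL1B were not among its rows. Their log2 FC ran from -0.02 for IL1A and -0.0028 for TNFSF13B to 0.02 for IL18 and 0.09 for TNFSF12.

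Of 34 further NF-κB targets, 26 were in the table with a median log2 FC of 0.0062, and 10 were negative. GADD45B, a stress-induced gene that limits cell death, was lower in 4 of 4 pairs with a log2 FC of -0.41 ± 0.27 that was not called (adjusted p of 0.0661 by limma). EFNA1 had a log2 FC of -0.27, and IRF1 and TNFRSF9 of 0.14 and 0.11. Of 39 further chemokines, 12 were in the table with a median log2 FC of -0.0060, between -0.12 for CXCL11 and 0.09 for CCL16, with -0.09 for CX3CL1 and 0.01 for CCL28. The receptors of the listed chemokines, CXCR1, CXCR2 and CCR6, were not among the rows. The ICAM1-binding integrin genes ITGAL, ITGAM and ITGB2 were in the table, with log2 FC of 0.02, 0.11 and 0.02 and limma adjusted p above 0.05. The differences between TNFAIP3 or BCL3 and the rest of the targets were not tested.

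**Figure D5:**
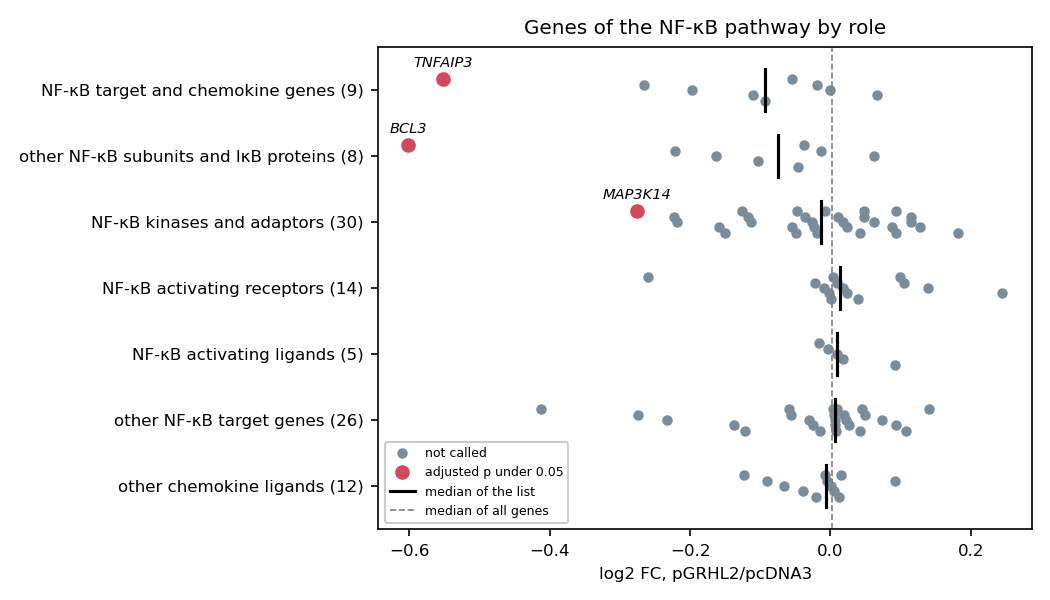
Log2 FC (x axis) of the genes of each list, with the number in the table in parentheses. Points are genes, red where the limma adjusted p over all genes was under 0.05, black bars are list medians and the dashed line is the median of all genes; the 3 called genes, TNFAIP3, BCL3 and MAP3K14, lie at -0.55, -0.60 and -0.28.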

How the data were processed

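Groups and replicate numbers came from the sample labels. According to the study's methods and the submitters' processing notes, reads were aligned to hg38 by HISAT2 and counted over exons, ignoring strand, by HTSeq 0.9.1 (minimum alignment quality of 10). The authors removed genes with fewer than 10 reads in all, applied DESeq2 rlog and divided by mean transcript length. The deposited values are on a log2 scale, although named as FPKM (3.71% were below 0). A stray character was removed from 1 value.

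The pair means were identical over the 4 numbers in 17561 of 17561 genes (tolerance of 1e-09). Replicate means had thus been removed, and a correlation check of pairing is void. limma 3.58.1 in R 4.3.3 (lmFit, eBayes with trend, 95% intervals) was fitted on all genes with the replicate number as a block (3 residual degrees of freedom), with Benjamini-Hochberg adjustment and a threshold of 0.05. The study describes its HepG2 RNA-seq libraries as biological replicates. Scripts were tested on simulated data with 200 changed genes. The fit with the block recovered 33.5% of them at a log2 change of 0.25 and 79.5% at 0.5, so that small changes can be missed.

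The 10 genes and the lists were chosen with earlier results of these data known. In each further pathway list, the called genes were named or, with 0 called, the 2 highest and 2 lowest log2 FC, besides the paralogs CXCL3 and BIRC2. Cell markers named (ALB, AFP, LYZ, PTPRC, CSF1R) were chosen after their values were seen. Alternatives were other eBayes settings, scalings and filters, removal of GC, length and level trends (natural splines with 5 degrees of freedom), the fit without the block and leaving out each pair. Promoters are from RefSeq and gene positions from GENCODE release 44.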

Additional observations from a re-analysis of the deposited data

Results flagged for a closer look

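A pair far from the other 3 was found in 4 of 33 genes examined, where chance gives about 1 in 20. In pair 4, the CXCL8 difference was 0.3887, while its other pairs had a median of -0.37. The MAP3K14 difference was -0.1200 in pair 3 and had a median of -0.33 elsewhere. TNFRSF9, a receptor of the TNF family, was at 0.3026 in pair 3 (median of the others 0.04), and TNFSF13B, which encodes the cytokine BAFF, was at 0.0619 in pair 2 (median of the others -0.02). Which library of a pair stood apart cannot be told, since both deviate from the pair mean by the same amount.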

How the results depend on the processing

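Among the 9 genes, 75 of 80 values outside the fits without a replicate kept direction and call. In the fits without the block, with other eBayes settings or with a minimum mean, the log2 FC could not change. There only the call could move. TNFAIP3 lost its call with eBayes without trend (log2 FC of -0.5518, adjusted p of 0.155 by limma) and with quantile normalization (-0.5304, adjusted p of 0.0565 by limma). It was called in 7 of the 9 fits outside those without a replicate. Among these 7 are the fit without the block, with too many residual degrees of freedom, and the fits with a minimum mean. The latter leave the TNFAIP3 values as they are. With quantile normalization and with trends removed NFKBIA was at 0.0216 and 0.0137. Without the replicate block, RELB was called (-0.2650, adjusted p of 0.0354), which makes 2 lower genes of 9 in a fit with too many residual degrees of freedom. The number of lower genes was 0 with eBayes without trend, with quantile normalization and at an adjusted p under 0.01.

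Over all genes, those higher and lower numbered 1821 and 1427 without the block, 4 and 2 with eBayes without trend, 503 and 221 with arrayWeights, 184 and 57 with quantile normalization, and 77 and 10 at an adjusted p under 0.01. Those higher numbered 63 with a mean value of at least 5 (81 lower) and 150 with trends removed (69 lower). The main limma fit used above gave 297 higher and 88 lower. The fit without the block takes 6 residual degrees of freedom where the removed replicate means leave 3, so that its calls are too many, and the causes of the other moves were not tested.

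When each replicate was left out in turn, the log2 FC ranged from -0.6928 to -0.4676 for TNFAIP3, from -0.3931 to -0.1174 for CXCL8, from -0.0587 to 0.2026 for BIRC3 and from -0.0384 to 0.0340 for NFKBIA. From 0 to 1 of the 9 genes, and from 8 to 68 of all genes, were lower, and from 79 to 156 of all genes were higher. The ranges were -0.0086 to 0.0102 for CXCL3, -0.0645 to 0.1367 for IL18, -0.0299 to 0.0525 for ITGB2 and -0.0244 to 0.0046 for TNFSF13B. The median log2 FC of the 9 genes ran from -0.11 with arrayWeights to -0.05 without replicate 2. It moved by less than its SD over pairs in every setting run. This SD (0.09) is as large as the median itself (-0.09), so that a move to 0 would have passed as well.

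Other genes changed sign near 0. CXCL3 was at -0.000605 with arrayWeights, -0.0031 with median centring, -0.0090 with quantile normalization and -0.0168 with trends removed. IL18 was at -0.0236 with arrayWeights, and IL1A, ITGAL and ITGB2 were at 0.0036, -0.0127 and -0.0160 with trends removed. BCL3 lost its call with eBayes without trend alone (adjusted p of 0.0668). MAP3K14 lost it there, with quantile normalization (0.0537) and with a mean value of at least 5 (0.0615). Without the block IL1R1, TNFRSF12A, TNFSF12 and EFNA1 were also called, and IL1R1 by arrayWeights too. GADD45B was called at a minimum mean of 5 (0.0482), by arrayWeights (0.0400) and without the block (0.0091). CXCL2 has no value with a mean of at least 5, and the depth behind low values is unknown.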
